A study of Mus musculus with 30 samples.

Results

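The genes of MHC class II antigen presentation were followed in the kidney and the gastrocnemius muscle of mice given a chow diet (CD), a western diet (WD), or a WD with cyclo(His-Pro) (CHP), a cyclic dipeptide. The 10 genes, H2-Aa, H2-Ab1, H2-Eb1, Cd74, H2-DMa, H2-DMb1, H2-Oa, H2-Ob, Ciita and Ctss, were chosen by name for their place in the pathway, out of 54838 genes listed for the kidney and 55487 for the gastrocnemius. All 10 were listed once in each table. The filter on low counts kept all 10 in the kidney and 9 in the gastrocnemius, where H2-Oa had 0 to 3 counts per library.

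The animals were male C57BL/6J mice of wild-type genotype, housed at 30 to 32 °C from 6 weeks of age. From Week 7 they received the CD or the WD, and 1 group on the WD received CHP at 20 mg/kg by gavage, 3 times per week, while the CD and WD groups received water. Tissues were taken at Week 24 after 3 h without food. Each tissue had 5 libraries on CD, 5 on WD and 5 on WD + CHP. No group received CHP on the CD, so an effect of CHP was measured on the WD background only. The sources do not say whether a kidney and a muscle library came from the same mouse.

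MHC class II molecules are pairs of an α and a β chain that carry peptides from taken-up proteins to the cell surface, where CD4+ T cells read them. They are made mainly by dendritic cells, B cells and macrophages, and the invariant chain Cd74 holds their groove closed on the way to the endosome. There Ctss (cathepsin S) trims the invariant chain, H2-DM exchanges the fragment left behind for peptide, and H2-DO restrains H2-DM. Ciita, the class II transactivator, binds no DNA itself and acts through the factors on the X and Y boxes upstream of these genes.

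RefSeq promoter windows (GRCm38.p6) were matched for 7 of the 10 genes: H2-Aa, H2-Eb1, H2-DMa, H2-DMb1, H2-Oa, H2-Ob and Ctss. H2-Ab1, Ciita and Cd74 were not matched. A window holds 250 bases before and 50 after a start site. The stretches from -110 to -31 are shown for the 5 members that hold the Y box letters there, which Ctss and H2-DMa do not, together with H2-DMb2, the close relative of H2-DMb1. Each is written 5′ to 3′ on the gene's own strand, and capitals mark the letters CCAAT, the Y box, and GNAACNNAT, read on either strand. H2-DMb1 is at chr17:34153081-34153160, H2-Eb1 at chr17:34305757-34305836, H2-Ob at chr17:34238795-34238874, H2-Oa at chr17:34092269-34092348 and H2-DMb2 at chr17:34145139-34145218, all on the plus strand, and H2-Aa is at chr17:34287854-34287933 on the minus strand.
H2-DMb1: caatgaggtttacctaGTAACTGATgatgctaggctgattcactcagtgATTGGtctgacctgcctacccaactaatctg
H2-Eb1: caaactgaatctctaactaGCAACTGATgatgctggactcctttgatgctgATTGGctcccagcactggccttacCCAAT
H2-Ob: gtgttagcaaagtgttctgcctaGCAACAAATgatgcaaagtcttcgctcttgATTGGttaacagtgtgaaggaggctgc
H2-Aa: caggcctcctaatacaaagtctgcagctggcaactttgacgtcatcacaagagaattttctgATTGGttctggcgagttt
H2-Oa: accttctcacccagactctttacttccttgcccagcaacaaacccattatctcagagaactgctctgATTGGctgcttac
H2-DMb2: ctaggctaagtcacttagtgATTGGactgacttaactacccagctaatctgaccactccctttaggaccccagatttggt

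CCAAT on either strand was in the windows of 6 of the 7 members matched and not in that of Ctss, and H2-DMa held it at -198 in 1 of its 2 windows. In the members printed, which were chosen for it, it is read on the minus strand from the letters attgg above, at -61 in H2-DMb1, -59 in H2-Eb1, -57 in H2-Ob, -48 in H2-Aa and -43 in H2-Oa (first base, counted from the RefSeq start site). H2-Eb1 held it on the plus strand as well, at -35. CCAAT on either strand was in 37.4% of all 32851 windows. The letters AGNAACAG, an X box core, were found in 1 member window, that of H2-Oa, at -3 on the minus strand, and in 7.5% of all windows. GNAACNNAT, written down after the sequences had been seen, was found in H2-DMb1, H2-Eb1 and H2-Ob, and in the other window of H2-DMa, 4 members of 7, and in 7.92% of all windows. In H2-DMb1, H2-Eb1 and H2-Ob it was followed on the same strand by ATTGG, with 33, 32 and 30 bases between the first letters, respectively. That pair, at a distance of 15 to 40 bases, was in 56 of the 32851 windows, or 0.17%. The pair of letters was chosen on these genes, so their match with it is a description. Among relatives, H2-DMb2 held the attgg without GNAACNNAT in its window, and H2-Eb2 held the pair from -132 to -96.

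The deposited totals were 37189192 to 38211422 counts per library in the kidney and 50319024 to 53282969 in the gastrocnemius. The tissue labels were checked against markers. The kidney kept all 12 proximal tubule markers after low counts were filtered out and the gastrocnemius kept none, with 3 of them (Slc5a12, Slc22a6 and Miox) at 0 in every library. All 12 markers of fast muscle fibres passed in the gastrocnemius and 4 in the kidney. The labels name frozen liver as the starting tissue of every library, against the tissue given for each sample. The summed hepatocyte markers were 3.74 to 78.8 CPM (counts scaled to the library size) in the gastrocnemius, and 1503 to 2316 CPM in the kidney, which itself expresses some genes of that list. In the gastrocnemius, CD library 1 and WD library 3 stood apart, with hepatocyte sums of 78.8 and 76.4 CPM against at most 18.8 CPM in the others, and proximal tubule sums of 2.11 and 2.08 CPM against at most 0.787 CPM. Without either one no member was called in this tissue, as with all libraries, and 3 small differences changed sign. The hepatocyte sum also differed by group there, at 3.74 to 5.34 CPM in the WD + CHP muscles, all below the CD muscles at 11.3 CPM or more, and 4.77 to 76.4 CPM on WD. Cyp2e1 of that list fell in the gastrocnemius from 13.8 ± 2.32 CPM on CD to 6.46 ± 3.48 on WD (adjusted p = 0.0147) and 3.40 ± 1.04 on WD + CHP (adjusted p = 0.00052). In the kidney Ttr rose by 0.85 ± 0.19 on WD and 0.86 ± 0.19 on WD + CHP compared with CD, and Cyp2e1 fell by 0.32 ± 0.093 on WD. On WD + CHP compared with WD, 5 of 7 hepatocyte markers tested in the kidney were lower and 2 higher (median log2 fold change -1.62). In the gastrocnemius all 5 tested were lower (median -3.66). None passed in either tissue. An unadjusted p under 0.05 was seen for 6 of 7 and 5 of 5, against 11.4% and 12.5% of all genes. The part of these markers in the members' values was not tested. As these are bulk tissues, fewer cells of a type and less RNA per cell cannot be told apart.

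Scaled to transcript length and library size (TPM), Cd74 was the most abundant of the 10 genes in both tissues on every diet. On CD, the mean level in the kidney was 183 ± 13.7 TPM (SD, n = 5) for Cd74, followed by 67.9 ± 3.15 TPM for H2-Ab1, 59.0 ± 4.18 TPM for H2-Eb1 and 52.3 ± 3.55 TPM for H2-Aa. H2-Ab1 and H2-Eb1 overlapped between libraries, as did H2-Eb1 and H2-Aa. Ctss was next with 22.8 ± 3.25 TPM, and H2-DMb1 with 13.97 ± 0.722 TPM was above H2-DMa with 4.52 ± 0.299 TPM. The regulator Ciita stood at 1.26 ± 0.234 TPM. The H2-DO chains closed the order with 0.707 ± 0.107 TPM for H2-Oa and 0.686 ± 0.114 TPM for H2-Ob, which overlapped. The order of the chains depends on the exon lengths used. In mean CPM on CD, H2-Aa (79.7) stood above H2-Ab1 (69.9) and H2-Eb1 (46.0), and H2-Ob (1.48) above H2-Oa (0.399).

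The order in the gastrocnemius on CD was the same at the top, with Cd74 at 37.5 ± 2.87 TPM, and differed by the place of the β chains. H2-Eb1 had 15.2 ± 2.15 TPM and H2-Ab1 13.2 ± 1.55 TPM, which overlapped, and H2-Aa had 9.34 ± 1.07 TPM. Ctss, at 9.00 ± 1.15 TPM, overlapped with H2-Aa. H2-DMb1 (2.28 ± 0.423 TPM) overlapped with H2-DMa (1.71 ± 0.155 TPM), and Ciita (0.254 ± 0.0323 TPM) and H2-Ob (0.120 ± 0.0472 TPM) were low. H2-Oa had 0 or 1 count in each CD library. In mean CPM, which uses no length, the order of the classical chains was H2-Aa (12.2), H2-Ab1 (11.7) and H2-Eb1 (10.2).

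In GENCODE M21 (GRCm38), the 7 H2 genes lie on chromosome 17 between 34092340 and 34316674, Ciita on chromosome 16 from 10480059 to 10528418 and Ctss on chromosome 3 from 95526786 to 95556403. All 10 genes had a higher level in every kidney library than in any gastrocnemius library. The 2 tables were scaled separately, and this comparison has no test. The ratio of the median TPM in the kidney to that in the gastrocnemius was 5.58 for H2-Aa, 5.24 for H2-Ab1, 4.10 for H2-Eb1 and 4.88 for Cd74. It was 5.81 for H2-DMb1, 5.53 for Ciita and 5.34 for H2-Ob, and smaller for H2-DMa (2.49) and Ctss (2.53). Within a library, the TPM of H2-DMa over that of H2-DMb1 was accordingly 0.246 to 0.360 in the kidney and 0.608 to 1.05 in the gastrocnemius, with no overlap between tissues. The ratio of Ctss to H2-Aa was 0.373 to 0.535 in the kidney and 0.744 to 1.62 in the gastrocnemius. The ratio of H2-Ab1 to H2-Aa overlapped between tissues, at 1.20 to 1.44 in the kidney and 1.04 to 1.59 in the gastrocnemius.

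**Figure D1:**
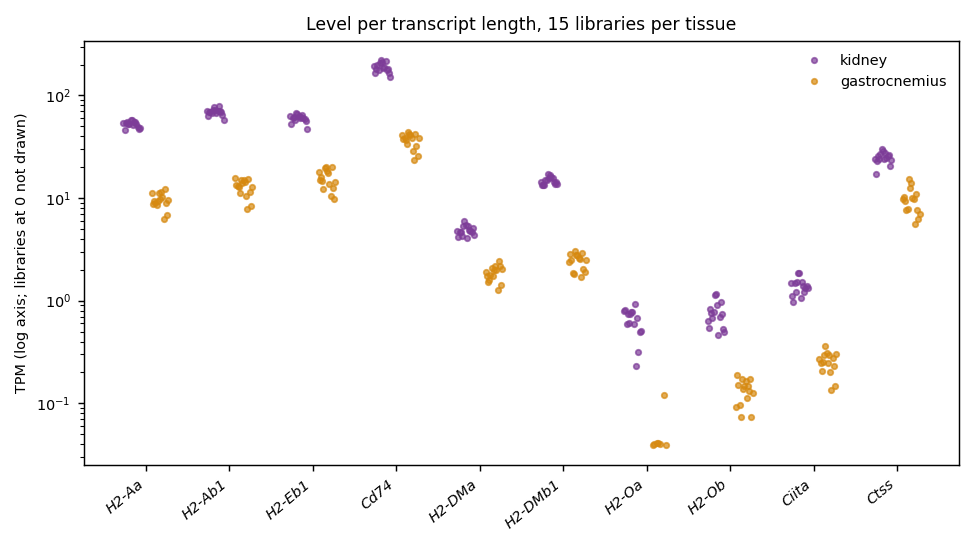
TPM on a log axis for the 10 genes, with 1 point for each of the 15 libraries of the kidney and of the gastrocnemius; libraries at 0 are not drawn. Every kidney point lies above every gastrocnemius point of the same gene, and H2-Oa in the gastrocnemius is drawn for the few libraries with 1 to 3 counts.

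The relatives of these genes stood lower. The counts of H2-DMb2 ranged from 24 to 86 in the kidney and from 2 to 22 in the gastrocnemius, while those of H2-DMb1 ranged from 350 to 449 and from 51 to 90. Reads can be shared between these near copies, so the counts of both are uncertain to that extent. H2-Eb2 had at most 13 counts in a kidney library. The E α chain gene, listed as H2-Ea-ps for the kidney and H2-Ea for the gastrocnemius, had 0 counts in all 15 libraries of each tissue. The C57BL/6 haplotype is known to lack a working E α gene, so the β chain transcript H2-Eb1 was present without that of its partner.

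The first question was whether the WD changed these genes in the kidney. One of the 10 passed the test, H2-DMb1, the β chain of the peptide exchanger H2-DM, which rose 1.18-fold. The other 9 also had higher means on the WD, by 1.07-fold for H2-Aa to 1.32-fold for H2-Ob, and did not pass. With 1 of 10 called, the share was close to the background: in this comparison 9.65% of the 17120 genes tested were called at an adjusted p under 0.05 (edgeR's quasi-likelihood test, Benjamini-Hochberg adjustment over all genes tested). The median log2 fold change was 0.21 over the 10 genes and 0.0015 over all genes, of which 50.4% had a higher mean on the WD. An unadjusted p under 0.05 was seen for 5 of the 10 and for 24.9% of all genes.

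H2-DMb1 had 9.71, 9.13, 9.28, 9.03 and 9.92 CPM in CD kidneys 1 to 5, and 10.2, 11.9, 11.1, 11.4 and 10.7 CPM in WD kidneys. Every WD library lay above every CD library, as it did, in either direction, for 8.7% of all genes tested. The log2 fold change was 0.23 ± 0.052 (SE), with an adjusted p of 0.00953. H2-DMb1 remained called when any 1 of the 10 libraries was left out, with an adjusted p of at most 0.0235. Its relative H2-DMb2 had 24 to 62 counts on CD and 36 to 86 on WD (log2 fold change 0.43 ± 0.30, adjusted p = 0.399). The partner chain H2-DMa had 6.68, 5.81, 6.67, 6.42 and 5.72 CPM on CD, and 7.52, 8.48, 8.02, 5.78 and 7.39 CPM on WD. Library 4 of the WD group lay within the CD range and the other 4 above it (log2 fold change 0.25 ± 0.091, adjusted p = 0.0959). Without that library, H2-DMa passed at an adjusted p of 0.0144.

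Ctss had 13.3, 9.47, 12.9, 13.7 and 12.8 CPM on CD, and 14.9, 16.8, 16.6, 13.3 and 14.8 CPM on WD. Library 2 of the CD group was the lowest, and 4 of the 5 WD libraries exceeded all those on CD (log2 fold change 0.30 ± 0.096, adjusted p = 0.0623). DESeq2 called it (adjusted p = 0.0303). Ciita had 5.76, 4.28, 3.82, 5.65 and 4.58 CPM on CD, and 5.96, 7.18, 7.55, 4.14 and 5.81 CPM on WD. Library 4 of the WD group was again the exception (log2 fold change 0.35 ± 0.14, adjusted p = 0.130). When it was left out, Ctss and Ciita passed as well, at 0.0400 and 0.0247, so that 4 of 10 genes were called with 1 library fewer. Without library 4 of the CD group, Ctss passed at 0.0436, for a total of 2.

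The classical chains and the invariant chain differed less. H2-Aa had 83.0, 71.1, 83.6, 83.0 and 77.7 CPM on CD and 81.9, 88.9, 92.8, 79.3 and 83.5 CPM on WD. H2-Ab1 had 73.6, 65.1, 72.2, 70.1 and 68.6 CPM on CD and 76.0, 80.4, 78.6, 70.9 and 71.3 CPM on WD. H2-Eb1 had 49.5, 41.4, 47.8, 47.6 and 43.9 CPM on CD and 54.1, 52.0, 52.1, 47.8 and 47.3 CPM on WD. The groups overlapped for all 3 chains, with log2 fold changes of 0.10 ± 0.054, 0.11 ± 0.064 and 0.14 ± 0.075 and adjusted p values of 0.278, 0.307 and 0.268, respectively. Cd74 had 131, 112, 125, 132 and 115 CPM on CD and 144, 152, 152, 128 and 127 CPM on WD. On the WD, 3 of the 5 libraries were above the CD range (log2 fold change 0.19 ± 0.079, adjusted p = 0.143). The H2-DO chains were at 13 to 18 counts on CD and 13 to 20 on WD for H2-Oa, and 45 to 70 and 38 to 97 for H2-Ob (adjusted p = 0.763 and 0.311).

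**Figure D2:**
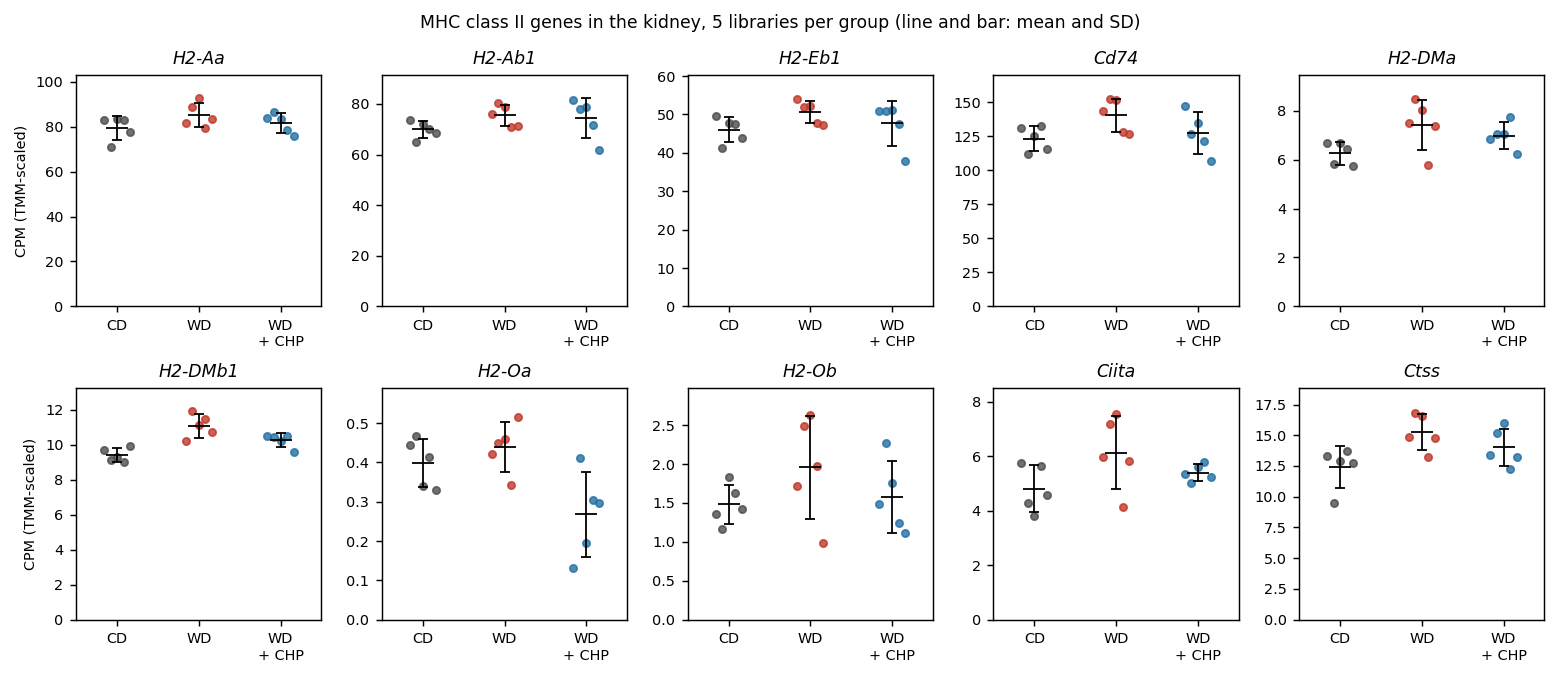
CPM of the 10 genes in the kidney by group, with 1 point per library, the mean (line) and the SD (bar), n = 5. For H2-DMb1 the WD points, 10.2 to 11.9 CPM, lie above the CD points, 9.03 to 9.92 CPM, and for the other genes the WD and CD points overlap.

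Some markers of lymphocytes rose on the WD in the same kidneys. Of 12 B cell markers, all had a higher mean on the WD, and Blk, Ighm and Fcrla were among those that rose, with log2 fold changes of 1.00 ± 0.26, 1.76 ± 0.47 and 0.93 ± 0.27. Of 11 T cell markers tested, all had a higher mean and 3 rose, against 9.65% of all genes called in either direction: Lck, Cd8a and Trbc2, by 0.66 ± 0.18, 0.84 ± 0.23 and 0.75 ± 0.23 on the log2 scale. The B cell markers summed to 60.3 to 110 CPM on CD and 71.2 to 203 CPM on WD, and the T cell markers to 6.56 to 8.65 and 7.65 to 12.2 CPM. Of the markers of all leucocytes, 8 of 8 had a higher mean and none passed, with sums of 49.6 to 60.6 CPM on CD and 58.9 to 72.4 CPM on WD. The macrophage sum overlapped throughout, at 204 to 231 and 196 to 239 CPM. Dendritic cell markers summed to 24.4 to 31.3 CPM on CD and 28.3 to 34.1 CPM on WD. Of the 12, 10 had a higher mean on the WD and 2 a lower one. The 1 that passed, Cd209a, fell by 0.53 ± 0.15. Of 8 adipocyte markers tested, Lipe, Pnpla2 and Cfd fell on the WD, by 0.37 ± 0.063, 0.45 ± 0.083 and 2.47 ± 0.68. Of the 12 proximal tubule markers, Miox, Slc13a3 and Slc5a2 rose on the WD, by 0.36 ± 0.044 to 0.43 ± 0.076, and Slc27a2, Cubn and Kap fell, by 0.23 ± 0.047, 0.32 ± 0.067 and 0.28 ± 0.080. Their sum was 36505 to 40059 CPM on CD, 33114 to 36452 on WD, just below the CD range, and 36075 to 40805 on WD + CHP. None of the leucocyte markers was at 0 in all kidney libraries, and the part of these cell types in the change of H2-DMb1 was not tested.

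The second question was whether CHP changed the same genes on the WD. In the kidney, the mean of all 10 was lower on WD + CHP than on WD and none passed the test, against 0.105% of all genes called. The median log2 fold change was -0.12 over the 10 genes and -0.0058 over all genes. Of the 10, 2 had an unadjusted p under 0.05, H2-Oa and H2-DMb1, against 11.4% of all genes. None was called by limma-voom, nor by DESeq2 among the 8 it adjusted, H2-Oa and H2-Ob having no adjusted p there. H2-DMb1 had 10.5, 10.4, 10.2, 10.5 and 9.55 CPM on WD + CHP, where library 5 lay below the WD range and the others overlapped it (log2 fold change -0.11 ± 0.052, adjusted p = 0.428). H2-Oa had 5, 15, 7, 11 and 11 counts on WD + CHP against 16, 17, 17, 13 and 20 on WD. With CHP, 4 of the 5 libraries were below those on WD and 1 overlapped (log2 fold change -0.71 ± 0.24, adjusted p = 0.276), at counts too low for a small difference to be detectable. Its partner H2-Ob had 41 to 83 counts, within the 38 to 97 of the WD group. In the same kidneys all 11 T cell markers tested and all 8 of leucocytes in general had a lower mean than on WD, with none past the test. Their sums were 6.88 to 9.12 CPM for T cells, against 7.65 to 12.2 on WD, and 47.0 to 67.5 CPM for leucocytes, against 58.9 to 72.4. Of the 12 B cell markers 10 had a lower mean and 2 a higher one, none past the test, and their sum was 80.8 to 244 CPM against 71.2 to 203, with the highest library in the CHP group. Of the 12 dendritic cell markers 8 were lower and 4 higher, and of the 12 macrophage markers 9 and 3, none past the test. The part of these cells in the members' values was not tested.

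Cd74 had 148, 127, 135, 121 and 107 CPM on WD + CHP (log2 fold change -0.14 ± 0.079, adjusted p = 0.535), and library 5 was the lowest of all 15. The same library was the lowest of its group for H2-Aa, H2-Ab1 and H2-Eb1, with 75.7, 61.7 and 37.8 CPM, while the group reached 86.4, 81.6 and 51.2 CPM. Its summed leucocyte markers, 47.0 CPM, were also the lowest of the 15, and their part in its values was not tested. The lower mean of H2-Ab1, by 0.022 ± 0.064, turned into a higher one without this library (0.039). With each library of these 2 groups left out in turn, the log2 fold change was -0.19 to -0.080 for Cd74. It was -0.11 to -0.015 for H2-Eb1 and -0.085 to -0.029 for H2-Aa. The values within 2 SE of the difference ran from -0.17 to 0.046 for H2-Aa, -0.15 to 0.11 for H2-Ab1 and -0.24 to 0.061 for H2-Eb1, so that a difference of any of these chains beyond 0.24 in either direction lay outside them. Ciita had 5.04 to 5.80 CPM and Ctss 12.2 to 16.0 CPM, both overlapping with WD (adjusted p = 0.667 and 0.673).

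Against CD, none of the 10 genes passed on WD + CHP in the kidney, while 12.1% of all genes were called. H2-DMb1 had the smallest adjusted p, 0.138, with a log2 fold change of 0.12 ± 0.052 and 4 of 5 libraries above the CD range. H2-Oa was lower by 0.57 ± 0.25 (adjusted p = 0.142), and the other 8 had log2 fold changes of 0.035 for H2-Aa to 0.17 for Ctss, of which those of H2-Aa, H2-Eb1 and Cd74 turned to slightly below 0 with total count scaling. An unadjusted p under 0.05 was seen for H2-DMb1 and H2-Oa alone, and neither DESeq2 nor limma-voom called a member.

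In the gastrocnemius none of the 9 genes tested passed on WD vs. CD, against 8.63% of all 15419 genes called. All 9 means were higher than on CD, with a median log2 fold change of 0.18 against 0.0013 over all genes. Ctss was the one gene of the 9 with an unadjusted p under 0.05. It had 4.62, 4.71, 4.30, 3.73 and 3.57 CPM on CD and 6.92, 5.54, 6.12, 4.54 and 4.59 CPM on WD, where libraries 4 and 5 overlapped with CD (log2 fold change 0.40 ± 0.16, adjusted p = 0.134). For H2-Ab1 and Cd74 the 2 diets were nearly level, with log2 fold changes of 0.012 ± 0.15 and 0.0011 ± 0.13, and the sign turned with the library left out, and for Cd74 also with limma-voom. H2-Aa had 10.97 to 14.9 CPM on CD and 11.9 to 14.4 CPM on WD, and H2-Eb1 7.97 to 12.3 and 9.23 to 12.8 CPM. H2-DMa, H2-DMb1, H2-Ob and Ciita had adjusted p values of 0.514, 0.389, 0.633 and 0.813. DESeq2 and limma-voom called none of the 9 either.

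With CHP the means of all 9 genes in the gastrocnemius were lower than on WD, and none passed, against 0.409% of all genes. The median log2 fold change was -0.25 over the 9 genes and -0.013 over all genes. The biggest difference was that of Ctss, which had 2.63, 5.21, 3.63, 2.94 and 3.24 CPM on WD + CHP. Library 2 lay within the WD range and the other 4 below it (log2 fold change -0.65 ± 0.16, adjusted p = 0.120). Without library 2 Ctss passed, at -0.83 ± 0.14 and an adjusted p of 0.0145, and DESeq2 called it over all libraries (adjusted p = 0.0175). It was also the one gene of the 9 with an unadjusted p under 0.05, where 12.5% of all genes had one.

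The WD + CHP muscles differed widely among themselves. H2-Aa had 8.31, 16.3, 11.9, 9.06 and 12.2 CPM, H2-Ab1 6.96, 13.7, 10.2, 7.49 and 11.2 CPM, H2-Eb1 7.04, 13.7, 8.47, 6.63 and 9.37 CPM, and Cd74 13.8, 24.7, 19.0, 15.1 and 21.7 CPM. For each of these, libraries 1 and 4 were the lowest of the group and library 2 the highest, and these 3 places were the same for H2-DMa (1.52 to 2.90 CPM) and H2-DMb1 (0.994 to 1.72 CPM). Ciita had 0.448 and 0.490 CPM in libraries 1 and 4 and 0.763 to 0.973 CPM in the others. The WD + CHP range of H2-Aa, H2-Ab1, H2-Eb1 and Cd74 thus overlapped with that of the WD (adjusted p = 0.647, 0.550, 0.406 and 0.585, respectively). The lower mean of H2-DMa turned into a higher one without library 1 (0.069) or library 4 (0.040), and that of H2-Ob without library 4 (0.035).

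**Figure D3:**
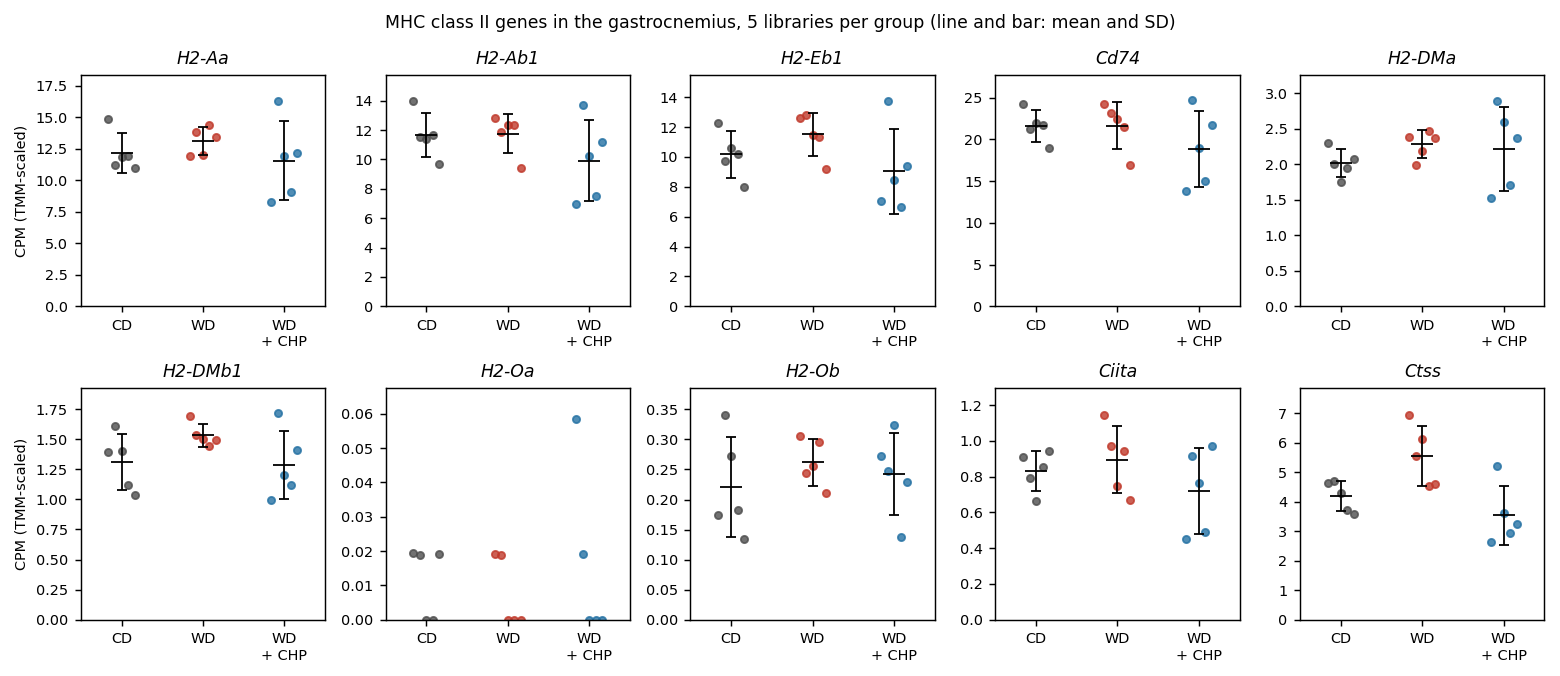
CPM of the 10 genes in the gastrocnemius by group, with 1 point per library, the mean (line) and the SD (bar), n = 5; H2-Oa, with 0 to 3 counts, is drawn without mean and SD. The WD + CHP points spread from 8.31 to 16.3 CPM for H2-Aa, and 4 of the 5 Ctss points on WD + CHP lie below the WD points.

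Leucocyte markers were followed in the gastrocnemius too. On WD + CHP compared with WD, 12 of 12 macrophage markers and 8 of 8 markers of all leucocytes had a lower mean, with none past the test. On WD compared with CD all of them had a higher mean, also with none past it. Of all genes, 45.9% had a higher mean in the first comparison and 50.4% in the second. The leucocyte sum was 15.1 to 22.4 CPM on CD, 19.5 to 25.7 on WD and 15.6 to 21.8 on WD + CHP, and the macrophage sum was 82.0 to 133, 93.7 to 135 and 71.0 to 132 CPM. In WD + CHP muscles 1 and 4 the leucocyte sum was 15.9 and 15.6 CPM, against 17.9 to 21.8 CPM in the other 3. Of the dendritic cell markers 8 of 12 passed the filter, and 2 of these 8, Zbtb46 and Itgax, rose on the WD, by 0.46 ± 0.088 and 0.96 ± 0.26, against 8.63% of all genes called. On WD + CHP compared with WD all 8 had a lower mean, with none past the test. Zbtb46 was also above CD on WD + CHP (0.46 ± 0.088, adjusted p = 0.0045). Of the B cell markers 10 of 12, and all 12 T cell markers, fell under the filter. Igkc, an antibody light chain gene, had 0.153, 0.206, 0.640, 8.79 and 0.861 CPM on WD against 0.0378 to 0.489 CPM on CD. It passed on WD vs. CD (3.52 ± 1.01, adjusted p = 0.0402) and did not without WD library 4 (1.32 ± 0.65, adjusted p = 0.238), a check added after its values were seen. The B cell sum had a median of 62.2 CPM on CD and 51.2 CPM on WD, with overlapping groups. Of the muscle fibre markers, Ckm and Acta1 fell on the WD, by 0.26 ± 0.069 and 0.22 ± 0.060. Of 10 adipocyte markers tested, 4 rose and 1 fell on the WD, against 8.63% of all genes called. Those that rose were Lep, Cidec, Plin1 and Adipoq, by 0.93 ± 0.15 for Plin1 to 3.96 ± 0.43 for Lep on the log2 scale. With CHP on the WD these 4 fell, by 0.98 ± 0.15 for Plin1 to 1.89 ± 0.37 for Lep, against 0.409% of all genes called. On WD + CHP Lep was still above CD, by 2.08 ± 0.43 (adjusted p = 0.0067). Cfd, of the same list, fell on the WD by 1.59 ± 0.23 and was as far below CD on WD + CHP (-1.59 ± 0.23). The adipocyte sum was 1377 to 1797 CPM on CD, 1398 to 1845 CPM on WD and 1232 to 1635 CPM on WD + CHP. The part of these cells in the level of Ctss was not tested.

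On WD + CHP compared with CD in the gastrocnemius none of the 9 genes passed, against 9.4% of all genes, and none had an unadjusted p under 0.05 or was called by DESeq2 or limma-voom. Of the 9, 7 were lower, with the largest difference for Ctss (log2 fold change -0.25 ± 0.17, adjusted p = 0.382), and H2-DMa and H2-Ob were higher by 0.14 ± 0.15 and 0.13 ± 0.27. The comparisons with WD and with CD share libraries and are not independent of each other.

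**Figure D4:**
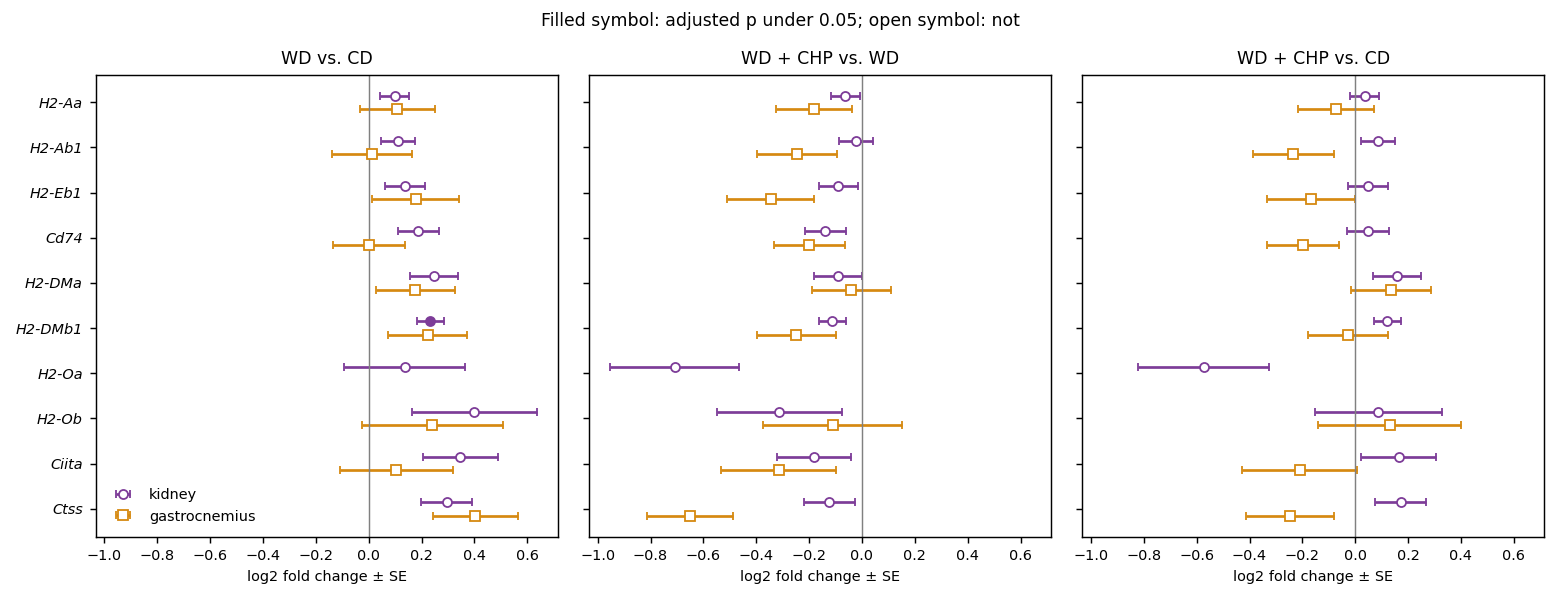
Log2 fold changes with SE for the 10 genes in the 3 comparisons, kidney in circles and gastrocnemius in squares, where a filled symbol marks an adjusted p under 0.05. The one filled symbol is H2-DMb1 on WD vs. CD in the kidney (0.23), all WD + CHP vs. WD points lie below 0, and H2-Oa has no gastrocnemius point.

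Whether the 2 tissues differed in their response was tested over all 30 libraries for the 9 genes kept in both. The effect of the WD differed between tissues for none of them, against 6.08% of 13943 genes, and no member had an unadjusted p under 0.05. The effect of CHP differed for none, against 0.667% of genes, and limma-voom also called none. Ctss had the largest difference: its CHP effect was 0.51 ± 0.19 higher in the kidney than in the gastrocnemius on the log2 scale (adjusted p = 0.216), and it was the only member with an unadjusted p under 0.05. H2-DMb1, called on the WD in the kidney and not in the gastrocnemius, had a difference between tissues of 0.018 ± 0.14 (adjusted p = 0.961).

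Other genes of the pathway were set beside the share of all genes called. Of 22 partners and regulators of class II, 17 were tested in the kidney and 1 rose on the WD, where 9.65% of all genes were called, Ctsl, the cathepsin L gene, from 292 ± 9.88 to 329 ± 17.8 CPM (log2 fold change 0.17 ± 0.046, adjusted p = 0.0267). The median over that list was 0.040. On WD + CHP compared with CD, 3 of 17 passed, against 12.1% of all genes. Ctsl (0.19 ± 0.046) and Creb1 (0.24 ± 0.074), a factor that binds the X2 box, rose, and Rfxank, a subunit of the RFX complex on the X box, fell by 0.20 ± 0.056. In the gastrocnemius 16 were tested, none passed on the WD, and Ctsl, 1 of 16, fell by 0.30 ± 0.065 on WD + CHP compared with CD, where 9.4% of all genes were called. No gene of this list passed on WD + CHP compared with WD in either tissue, with 0 of 17 at an unadjusted p under 0.05 in the kidney and 3 of 16 in the gastrocnemius, against 11.4% and 12.5% of all genes.

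Interferon gamma is the main inducer of Ciita outside the professional antigen-presenting cells. Of the 11 genes from the cytokine to Ciita, 10 were tested in each tissue, with 5 higher and 5 lower on the WD in the kidney, and 2 higher and 8 lower in the gastrocnemius. Of the 10, 1 was called on the WD in each tissue, against 9.65% and 8.63% of all genes. It was the receptor-associated kinase Jak2, which fell in both tissues, by 0.18 ± 0.046 in the kidney (adjusted p = 0.0221) and 0.39 ± 0.10 in the gastrocnemius (adjusted p = 0.0253). On WD + CHP compared with CD, where 12.1% of all genes were called in the kidney and 9.4% in the gastrocnemius, 1 of 10, Irf2, fell in the kidney by 0.20 ± 0.050, and 2 of 10, Irf8 and Jak2, fell in the gastrocnemius by 0.37 ± 0.095 and 0.34 ± 0.10. With CHP on the WD none passed, and 3 of 10 in the kidney and 1 of 10 in the gastrocnemius had an unadjusted p under 0.05, against 11.4% and 12.5% of all genes.

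MHC class I molecules present peptides made inside the cell. All 23 genes of that list were tested in both tissues. On the WD in the kidney 2 of 23 passed, against 9.65% of all genes: B2m, the light chain of class I, rose by 0.23 ± 0.061, from 307 ± 29.1 to 359 ± 19.9 CPM, and H2-T22, a class I relative, fell by 0.24 ± 0.048. On WD + CHP compared with CD in the kidney, 5 of 23 fell and 1 rose, against 12.1% of all genes called. Those that fell were Tapbp, which loads peptide on class I, by 0.18 ± 0.039, H2-Q6 by 0.32 ± 0.068, H2-Q4 by 0.27 ± 0.069, H2-T22 and H2-Q7, and the one that rose was the chaperone Canx (0.16 ± 0.048). Several H2-Q and H2-T genes are close copies, so their counts are uncertain to the extent that reads were shared. None passed in the gastrocnemius, where 19 of 23 had a lower mean on WD + CHP than on WD and 4 a higher one, against 45.9% of all genes with a higher one. Of the 9 costimulatory genes 6 were tested in each tissue, and none passed in any comparison.

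Among libraries of 1 group, the classical chains and Cd74 moved together. After group means had been subtracted, Pearson's r between any pair of H2-Aa, H2-Ab1, H2-Eb1 and Cd74 was 0.73 to 0.94 over the 15 kidney libraries and 0.76 to 0.98 over the 15 gastrocnemius libraries. These libraries share their scaling, and the values are descriptions. The spread around the group mean was wider in the muscle, with a SD on the log2 scale of 0.25 to 0.29 for these 4 genes against 0.090 to 0.14 in the kidney. With the mean of the 4, the remaining genes had r of 0.63 (H2-DMa), 0.65 (H2-Ob), 0.67 (Ctss), 0.46 (Ciita), 0.38 (H2-DMb1) and -0.27 (H2-Oa) in the kidney, and 0.76, 0.27, 0.79, 0.76 and 0.77 for H2-DMa, H2-Ob, Ctss, Ciita and H2-DMb1 in the gastrocnemius. H2-DMb1, the gene called on the WD in the kidney, was thus among the less alike there.

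The same mean was set against the summed markers. For the kidney, r was 0.85 (Spearman's rho 0.79) with macrophage markers and 0.84 (0.83) with those of all leucocytes, 0.45 (0.59) with dendritic cell markers, 0.40 (0.41) with T cell markers and 0.14 (0.082) with B cell markers. Without the 2 libraries farthest from the median of the marker sum, r was 0.75 for both macrophages and leucocytes. It was then 0.34 for dendritic cell, 0.31 for T cell and 0.11 for B cell markers. For the gastrocnemius, r was 0.77 (0.75) with dendritic cell, 0.73 (0.67) with macrophage and 0.70 (0.68) with leucocyte markers, and 0.82, 0.54 and 0.63 without the 2 farthest libraries. With T cell markers it was 0.55 (0.15), turning to -0.16 without the 2 farthest libraries, and with B cell markers 0.11 (0.19). The other lists gave -0.48 (-0.36) with adipocyte, -0.45 (-0.36) with fast muscle fibre, 0.35 (0.40) with proximal tubule and 0.26 (0.26) with hepatocyte markers in the gastrocnemius. In the kidney they gave -0.39 (-0.19), -0.22 (-0.36), 0.23 (0.082) and -0.49 (-0.47), respectively. Without the 2 farthest libraries the kidney values were 0.0087, -0.25, -0.052 and -0.43.

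The 10 genes outside the list most like that mean, of 17106 in the kidney, were Phf11a, Bend6, Lcp1, Sema6a, Fgd2, D830025C05Rik, Calhm6, Ebi3, Pheta2 and C1qc, with r from 0.84 to 0.87 and rho from 0.68 to 0.85 over 15 libraries. In the gastrocnemius, of 15405 genes, they were Fgd2, Clec10a, Ccr2, Lcmt2, Prelid1, Sash3, Hvcn1, Meis3, Rab32 and Pla2g2d, with r from 0.80 to 0.86 and rho from 0.63 to 0.85. Fgd2 was in both lists, with r of 0.86 in each. Several of the kidney genes, among them Bend6, Calhm6 and Phf11a, had a mean of 0.215 to 0.403 CPM and rest on few counts.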

How the data were processed

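Poly(A) RNA was sequenced on a BGISEQ-500. Per the labels and the submitters' processing notes the reads were aligned to GRCm38 with STAR 2.7.3a. The counting tool, annotation release and strand setting are not given in the sources used here, and the labels and the study's methods differ on the extraction kit of the gastrocnemius. The authors deposited raw counts per gene, 1 table per tissue, with no normalization. Each column was matched to a sample by the number that opens its title. Counts were analysed with edgeR 4.0.16 (R 4.3.3): filterByExpr with a minimum count of 10, TMM scaling, and the quasi-likelihood F test on 3 groups of 5 libraries in 1 fit per tissue, with adjustment over all genes kept (17120 and 15419) and a threshold of 0.05. Differences between tissues were tested as interactions over 30 libraries. The code was tested on simulated data. CPM use TMM-scaled totals. TPM were computed from the counts and the GENCODE M21 length of all exons of a gene, merged over its transcripts. DESeq2 1.42.0, limma-voom (limma 3.58.1), other scalings, filters, a replicate block and leaving out each library were tried. Members and lists were chosen with earlier results of these data known. All members were reported. From each list at most 4 genes per comparison were to be named, by the smallest adjusted p under 0.05, and the further genes named beside a count of 6 or fewer were chosen after their values were seen. H2-DMb2 and H2-Ea were always reported. Likeness was ranked by Pearson's r with the mean log2 CPM of H2-Aa, H2-Ab1, H2-Eb1 and Cd74 after subtracting group means. Per the study's methods RNA of each mouse was sequenced, so p-values are read against the spread between mice. The values of 1 marker gene are not reported here.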

Additional observations from a re-analysis of the deposited data

Results flagged for a closer look

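In groups of 5 libraries, a value was marked where its gap to the nearest other exceeded 0.71 of the group's range (Dixon's criterion). Of 57 groups searched, 5 had such a value, where chance marks about 1 in 20 groups. The groups share libraries and the members moved together, so they are not independent, and an excess was not tested. In the kidney, H2-Eb1 in WD + CHP library 5 was at 37.8 CPM against 47.4 to 51.2 CPM in the others. In the same library H2-DMb1 was at 9.55 CPM against 10.2 to 10.5 CPM. Ctss in CD kidney 2 was at 9.47 CPM against 12.8 to 13.7 CPM. In the gastrocnemius, H2-Aa in CD library 1 was at 14.9 CPM against 10.97 to 11.9 CPM. That library also had a hepatocyte marker sum of 78.8 CPM against 11.3 to 17.0 CPM in the other CD muscles, and the part of this in its values was not tested. H2-Ab1 in WD library 5 was at 9.44 CPM against 11.9 to 12.8 CPM. No member had an effect that differed between the tissues past the threshold.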

How the results depend on the processing

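The numbers of members called were mostly kept. On WD vs. CD in the kidney 1 member was called, 2 by DESeq2, 3 at an adjusted p under 0.1, and 1 to 4 when 1 library was left out. On WD + CHP vs. WD in the gastrocnemius 0 were called, 1 by DESeq2, and 0 to 1 when 1 library was left out. With the replicate number as a block, 1 member was called on WD vs. CD in the kidney and 0 in the other comparisons. Same-numbered libraries had correlations of -0.126 to 0.146 between their deviations over all genes kept. Whether they share a factor that acts on some genes was not tested. Over all genes the block moved WD + CHP vs. WD in the kidney from 18 to 70 calls.

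Signs turned for members near 0. With total count scaling, WD + CHP vs. CD in the kidney gave -0.017 for H2-Aa, -0.0029 for H2-Eb1 and -0.0020 for Cd74, and the tissue difference of WD vs. CD gave -0.051 for H2-DMb1. Cd74 on WD vs. CD in the gastrocnemius was -0.0050 with limma-voom, -0.0015 without a filter and -0.0033 with the replicate block, and the tissue difference of WD vs. CD for H2-Aa was 0.0012 with that block. Leaving out 1 library, the ranges that crossed 0 on WD + CHP vs. WD were -0.055 to 0.039 for H2-Ab1 in the kidney, and in the gastrocnemius -0.15 to 0.069 for H2-DMa and -0.24 to 0.035 for H2-Ob. On WD vs. CD in the gastrocnemius they were -0.047 to 0.086 for H2-Ab1 and -0.044 to 0.077 for Cd74. On WD + CHP vs. CD they were -0.079 to 0.19 for H2-Ob and -0.00043 to 0.11 for Cd74 in the kidney, and -0.23 to 0.024 for H2-Aa, -0.15 to 0.065 for H2-DMb1 and -0.0050 to 0.35 for H2-Ob in the gastrocnemius. The causes were not tested.

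Over all genes, WD + CHP vs. WD gave 18 calls in the kidney against 194 by DESeq2, 37 without a filter and 0 when fitted on those 2 groups alone (edgeR, 1991 at an unadjusted p under 0.05). In the gastrocnemius it gave 63 against 249 by DESeq2 and 40 without a filter, and the tissue difference of the CHP effect 93 against 60 by limma-voom. Total count scaling moved the split of higher to lower calls on WD vs. CD in the gastrocnemius from 720 and 610 to 1506 and 346, on WD + CHP vs. WD there from 10 and 53 to 0 and 54, on WD + CHP vs. CD in the kidney from 1070 and 1000 to 660 and 1814, and of the tissue differences from 393 and 455 to 248 and 974 and from 72 and 21 to 112 and 13. The members with the fewest counts were H2-Oa (5 to 20 in a kidney, 0 to 3 in a muscle) and, in muscle, H2-Ob (7 to 18).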
